A study of Mus musculus with 10 samples.

Results

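The matrix metalloproteinases (Mmp), the ADAMTS proteases (Adamts) and the tissue inhibitors of metalloproteinases (Timp) were examined in whole lungs of mouse pups at postnatal day 6 (P6). Members were the protein-coding genes whose symbol starts with one of these family names followed by a number, without the neutrophil enzymes Mmp8 and Mmp9. The rule itself uses no measured value, although it was set with earlier results of these data known. The rule found 44 of the 35275 genes in the table, comprising 21 Mmp, 19 Adamts and 4 Timp genes. The pups were of the CD1 strain. Dll4+/- pups carried 1 Dll4 allele replaced by a lacZ reporter in the germline, in a line re-established from frozen sperm, and Dll4+/+ pups had both alleles intact. No treatment is given for either genotype. The 8 libraries analysed were 4 Dll4+/- (replicates 1 to 4) and 4 Dll4+/+ (replicates 3 to 6), with 2 females and 2 males per genotype by label. Levels are FPKM, that is, fragments divided by exon length and by the mapped fragments of the library, so that genes of different length can be set side by side.

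Metalloproteinases cut the proteins of the extracellular matrix and hold a zinc ion in their active site. Mmp enzymes cut collagens, gelatin, laminins and many other proteins, either as secreted enzymes or anchored to the cell membrane. ADAMTS enzymes are secreted and cut narrower sets of substrates, such as the proteoglycans versican and aggrecan, the amino-terminal ends of procollagens, or von Willebrand factor. TIMPs block the active site by fitting a short ridge at their amino-terminal end into it. During alveolar formation the lung grows new septa, and its matrix of collagens, elastin and proteoglycans is laid down and remodelled by these enzymes.

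The zinc-binding site shows how the families resemble each other, and it is printed for the members on which the levels and differences described further on turn. It is the stretch of 33 coding bases that holds 3 histidine codons, which are in capitals. The site was found in all 40 protease members. In all 21 Mmp genes it lay within 1 exon, and in all 19 Adamts genes it was split across 2 exons by an intron. The sequences are coding strand, read 5′ to 3′ from GENCODE M21 transcripts of GRCm38. Positions run from the first to the last base of the site, introns included.
Adamts15, chr9:30911255-30911690, reverse strand, exons 2 and 3: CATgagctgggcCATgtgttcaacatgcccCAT
Adamts1, chr16:85799191-85799545, reverse strand, exons 3 and 4: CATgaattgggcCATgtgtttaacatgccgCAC
Adamts8, chr9:30952721-30953378, forward strand, exons 3 and 4: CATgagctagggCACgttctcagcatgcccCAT
Adamts2, chr11:50775403-50776134, forward strand, exons 7 and 8: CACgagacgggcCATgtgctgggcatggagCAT
Adamts14, chr10:61225465-61227123, reverse strand, exons 7 and 8: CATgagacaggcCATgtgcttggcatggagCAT
Adamts10, chr17:33538157-33538279, forward strand, exons 9 and 10: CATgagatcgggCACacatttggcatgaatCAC
Mmp2, chr8:92839279-92839311, forward strand, exon 8: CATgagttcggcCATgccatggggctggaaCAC
Mmp14, chr14:54437627-54437659, forward strand, exon 5: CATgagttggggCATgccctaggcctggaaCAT
Mmp15, chr8:95368585-95368617, forward strand, exon 5: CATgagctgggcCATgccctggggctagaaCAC

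Bases shared by the sites were counted for a few chosen pairs. Adamts2 and Adamts14, which both remove the amino-terminal propeptide of fibrillar procollagens, shared 30 of the 33 bases. Adamts15 shared 28 with Adamts1 and 27 with Adamts8, and these are proteoglycan-cutting enzymes. Mmp14 shared 27 with Mmp15, 27 with Mmp2 and 23 with Mmp11, whereas Mmp2 and Adamts15, from different families, shared 19. Adamts10 shared 22 with its fellow ADAMTS member Adamts17 and 22 with Mmp2.

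The TIMP ridge is printed to show the cysteine codons that all 4 inhibitors have in common, although they differ widely in level. It covers 21 coding bases from the first cysteine of the mature protein, with 2 cysteine codons in capitals, in the same source and strand.
Timp1, chrX:20871111-20871131, forward strand, exon 2: TGTagcTGTgccccaccccac
Timp2, chr11:118354992-118355012, reverse strand, exon 1: TGCagcTGCtccccggtgcac
Timp3, chr10:86300923-86300943, forward strand, exon 1: TGCacaTGCtctcccagccat
Timp4, chr6:115251671-115251691, reverse strand, exon 1: TGCagcTGTgcgcctgcgcac

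Of the 44 members, 26 reached an FPKM of 1 in 4 or more libraries and were tested for genotype. These were 8 Mmp, 14 Adamts and all 4 Timp genes. Another 14 members were above 0 in at least 1 library but below that level, and 4 were listed at 0 in every library. Expression was concentrated in few members. The 4 with the highest mean, Adamts10, Timp2, Mmp14 and Mmp2, held 62.7% of the summed FPKM of all members, and the leading 12 held 91.0%.

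**Figure D1:**
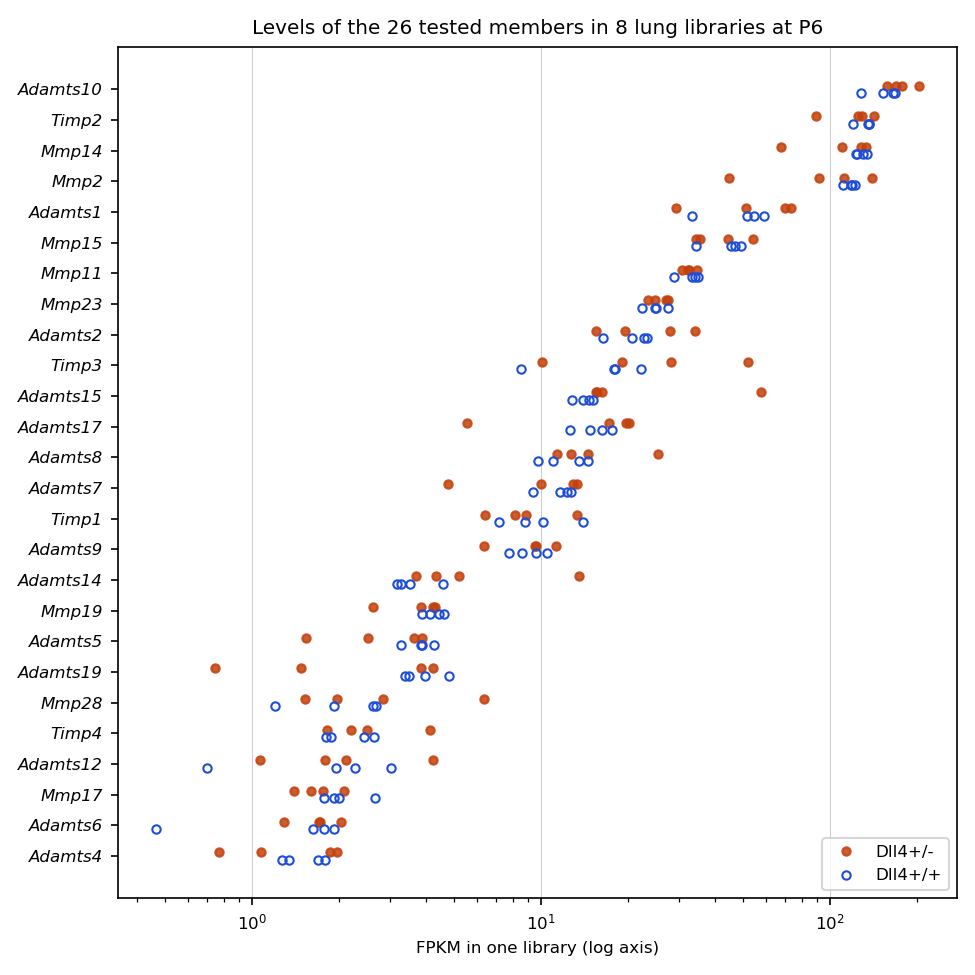
FPKM of each of the 26 tested members (rows, ordered by mean over all libraries) in the 4 Dll4+/- libraries (filled points) and the 4 Dll4+/+ libraries (open points), on a log axis. The members span from Adamts10, with 128 to 203 FPKM, to Adamts4, with 0.770 to 1.98 FPKM, and the points of the 2 genotypes overlap in every row but that of Adamts15.

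Members below the tested level included all 3 grouped as collagenases, Mmp1a, Mmp1b and Mmp13, and the stromelysins Mmp3 and Mmp10. Mmp8 was left out by the member rule. Of the 14 untested members above 0, 9 were Mmp and 5 Adamts genes, and their highest FPKM in any library was 0.745, for the procollagen protease Adamts3 in Dll4+/- replicate 1. Adamts3 lay between 0.518 and 0.745 FPKM, so it was the member nearest to the limit. Adamts13, the protease of von Willebrand factor, lay between 0.165 and 0.389 FPKM. Mmp25, a membrane-anchored enzyme of leukocytes, was at 0.658 FPKM in Dll4+/- replicate 1, with the others between 0.0631 and 0.190. Mmp16, a membrane-type enzyme, was likewise highest in Dll4+/- replicate 1, at 0.533 FPKM against 0.157 to 0.391. Adamts18 and Adamts20 reached 0.387 and 0.427 FPKM, and Mmp24, Adamts16, Mmp27 and Mmp21 did not exceed 0.106.

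A block of members at or near 0 lay together on chromosome 9. The 9 genes Mmp13, Mmp12, Mmp1b, Mmp3, Mmp1a, Mmp10, Mmp27, Mmp20 and Mmp7 occupy 427 kb, from 7272514 to 7699585 (GRCm38, GENCODE M21). None was tested, 5 were above 0 in at least 1 library, and the highest value of any was 0.497 FPKM. That value belonged to the collagenase Mmp13 in Dll4+/+ replicate 4, where the other 7 libraries lay between 0.0629 and 0.151. The macrophage elastase Mmp12 was above 0 in every library, from 0.225 to 0.476 FPKM. The stromelysin Mmp3 had 0.196, 0.102, 0.287 and 0.412 FPKM in Dll4+/- and 0, 0.118, 0.162 and 0.0840 in Dll4+/+ libraries, with overlap, and Mmp10 was above 0 in 2 libraries. The matrilysin Mmp7, the enamel protease Mmp20, and Mmp1a and Mmp1b, which are grouped here as collagenases, were the 4 at 0. A count of 0 allows up to 3 fragments per library, which for a transcript of 2000 bases is 0.0654 to 0.0872 FPKM. This limit covers counting error only.

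Most promoters of this block held the 1 motif that was searched. The letters TGANTCA, the binding motif of the AP-1 (Fos and Jun) transcription factors, read the same on both strands, and they were searched in the window from 250 bases before to 50 bases after each gene start (RefSeq, GRCm38.p6). A promoter sequence was matched for 31 of the 44 members. The motif was in 8 of the 9 block members (88.9%, Mmp27 being the exception), in 0 of the 22 other members and in 0 of the 15 tested members with a promoter sequence. Over all genes, 2425 of 27025 promoters (8.97%) held it. A match describes the letters and not a bound site. The windows around the match, with the motif in capitals, are shown for 4 members of different kinds, the collagenase Mmp13, the stromelysins Mmp3 and Mmp10 and the matrilysin Mmp7.
Mmp13, 35 bases before the start, chr9:7272462-7272502, forward strand: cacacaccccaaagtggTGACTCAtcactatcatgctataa
Mmp3, 46 bases before the start, chr9:7445759-7445799, forward strand: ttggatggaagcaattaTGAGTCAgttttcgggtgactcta
Mmp10, 63 bases before the start, chr9:7502262-7502302, forward strand: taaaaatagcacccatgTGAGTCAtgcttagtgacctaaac
Mmp7, 63 bases before the start, chr9:7692010-7692050, forward strand: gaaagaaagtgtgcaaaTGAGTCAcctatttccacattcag

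Libraries held 17201662 to 22927840 fragments, as recovered from the steps of the FPKM values. Dll4 itself had a level of 14.8 ± 4.36 FPKM (SD, n = 4) in the heterozygous and 27.6 ± 4.12 FPKM (SD, n = 4) in the wild-type lungs, with no overlap (two-sided exact permutation p = 0.0286, the smallest that 4 against 4 libraries allow). Sftpc, the surfactant gene that marks alveolar type II cells, was between 11200 and 36800 FPKM. Dll4+/- replicate 2, labelled female, had 0.273 FPKM of Xist and 20.3 FPKM of the Y-linked Ddx3y, against its label. Dll4+/- replicate 1 stood apart from the other libraries on the leading principal component of all tested genes (44.9% of the variance). On the next (20.4%), Dll4+/- replicate 4 (33.2) and Dll4+/+ replicate 3 (21) lay opposite Dll4+/- replicate 3 (-19.7) and Dll4+/+ replicate 5 (-14.8). In whole-lung RNA, fewer cells of a type and less RNA per cell cannot be told apart.

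The comparison of genotypes asked whether loss of 1 Dll4 copy moves transcripts of these proteases and inhibitors at P6. No member passed the threshold. In limma, 0 of the 26 tested members had an adjusted p under 0.05, as did 0 of all 13610 genes (0.0%), and adjusted p values of members ran from 0.811 to 0.992. Without adjustment 0 of 26 members lay under 0.05, where 457 of all genes (3.36%; 1.45% higher and 1.91% lower) did, and the smallest unadjusted p of a member was 0.10 in limma. In Dll4+/- lungs 12 members had a higher and 14 a lower mean of log2(FPKM + 1), which makes 46.2% higher, against 45.9% of all genes tested. The median log2 fold change of the members was -0.01, beside -0.02 over all genes, and the median size of the change was 0.17, beside 0.14. With voom, a count model run on the recovered fragments, 0 members passed either.

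**Figure D2:**
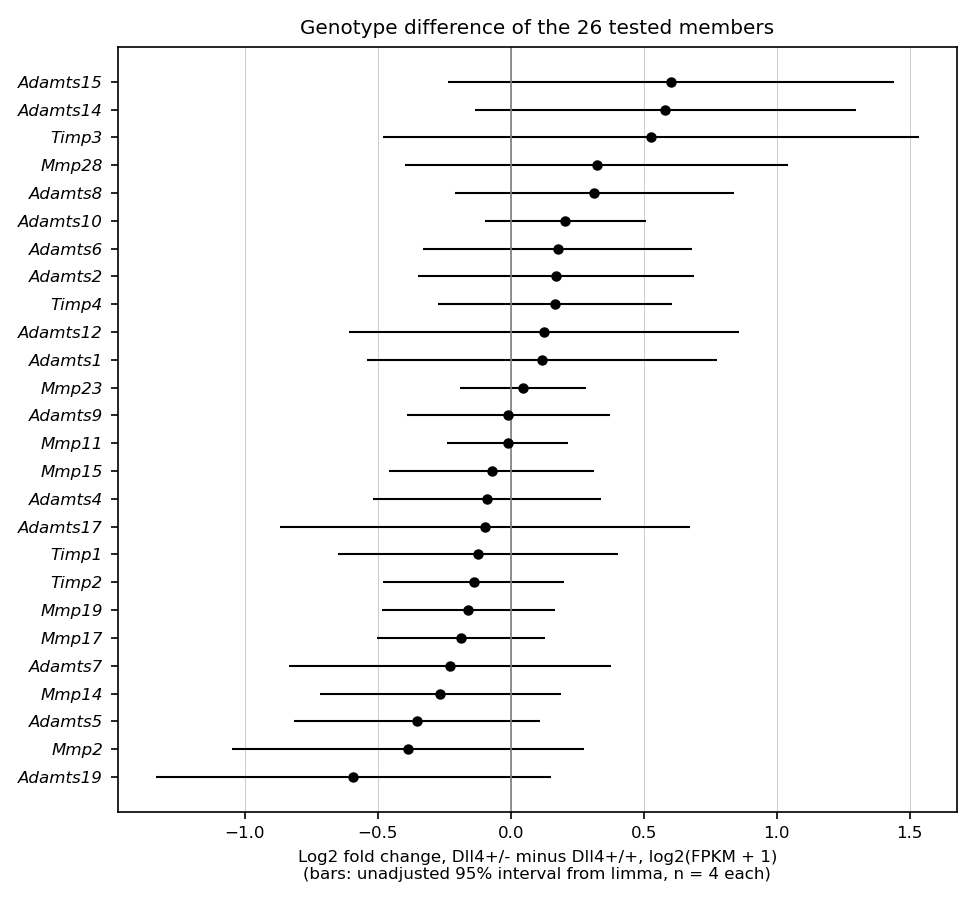
Log2 fold change of each of the 26 tested members (rows, ordered by value) as Dll4+/- minus Dll4+/+ on the log2(FPKM + 1) scale. Points are limma estimates and bars their unadjusted 95% intervals, with 4 libraries in each group. Every interval includes 0, and the widest belong to Timp3, Adamts15 and Adamts17.

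Groups failed to overlap for 1 of the 40 members above 0, Adamts15, where 2.65% of all genes above 0 did so (3.12% of the tested genes, 1.43% higher and 1.69% lower). Adamts15 (ENSMUSG00000033453) encodes a protease that cuts versican and aggrecan and lies on chromosome 9 from 30899155 to 30922452, reverse strand. Its FPKM was 57.7, 16.2, 15.7 and 15.5 in Dll4+/- replicates 1 to 4 and 12.8, 15.2, 14.7 and 14.0 in Dll4+/+ replicates 3 to 6. The library of Dll4+/- replicate 1 was far above all others, and the remaining 3 Dll4+/- libraries lay just above the highest Dll4+/+ library. The log2 fold change was 0.60 (SE 0.37), and in limma the adjusted p was 0.811. The exact permutation p was 0.0286, and 1 after adjustment over all genes above 0. Without Dll4+/- replicate 1 the mean was 15.8 ± 0.354 FPKM (SD, n = 3), 1.12 times the Dll4+/+ mean, with an exact permutation p of 0.0571, the log2 fold change then being 0.15. When libraries were rescaled to equal totals, Dll4+/- replicate 4 (14.6) lay between Dll4+/+ replicates 6 (14.2) and 5 (15.3), so that the groups overlapped.

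**Figure D3:**
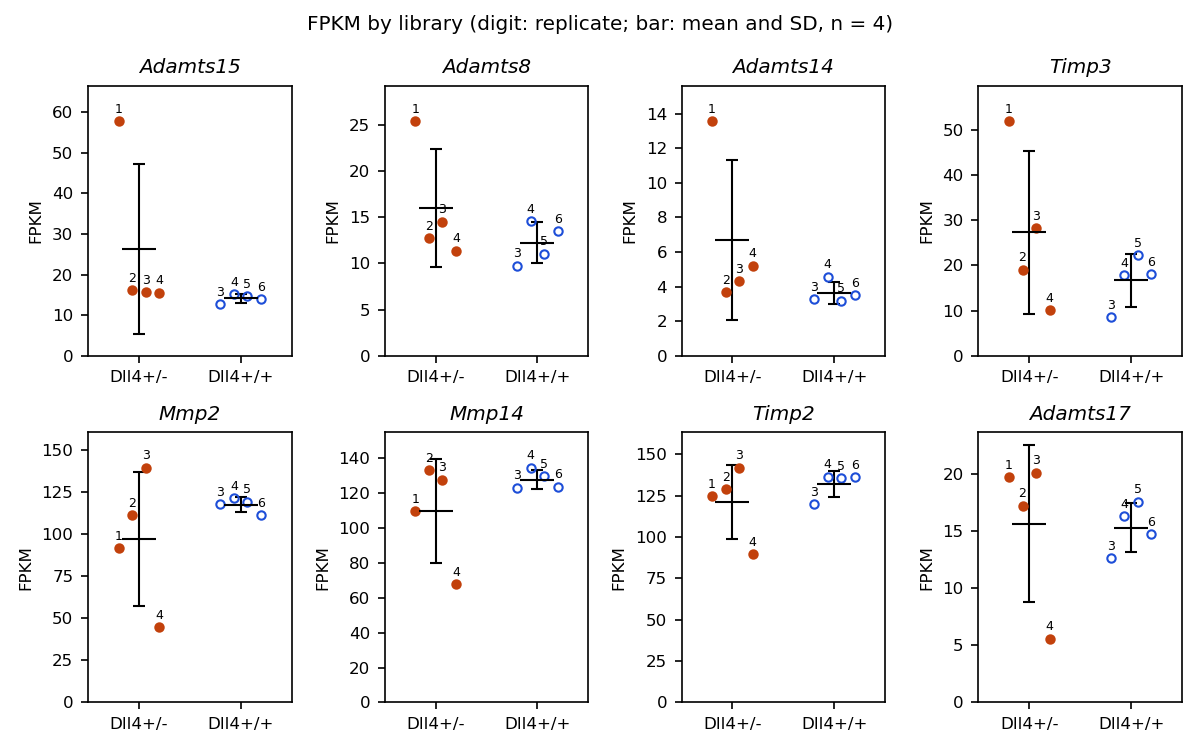
FPKM by library for 8 members, in Dll4+/- (filled points) and Dll4+/+ (open points). The digit is the replicate number, the horizontal bar the mean and the error bar the SD (n = 4 each). In the upper row Dll4+/- replicate 1 is the highest library for Adamts15, Adamts8, Adamts14 and Timp3, and in the lower row Dll4+/- replicate 4 is the lowest for Mmp2, Mmp14, Timp2 and Adamts17.

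The gelatinase Mmp2 and the membrane-type enzymes Mmp14 and Mmp15 were among the most abundant members. Mmp2 (ENSMUSG00000031740, chromosome 8 from 92827291 to 92853420, forward strand), gelatinase A, cuts denatured collagen and type IV collagen. It had 91.9, 111.5, 139.5 and 44.8 FPKM in Dll4+/- replicates 1 to 4 and 118, 121, 119 and 111 in Dll4+/+ replicates 3 to 6. Dll4+/- replicate 4 was lowest and replicate 3 highest, so the Dll4+/+ libraries lay inside the range of the Dll4+/- libraries. The log2 fold change was -0.39 (SE 0.29; adjusted p = 0.811 in limma), and without Dll4+/- replicates 1 and 4 it was 0.09.

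Mmp14 (ENSMUSG00000000957, chromosome 14 from 54431612 to 54445364, forward strand) is a membrane-bound collagenase that activates the Mmp2 precursor with the help of Timp2. Its FPKM was 109.8, 133, 128 and 67.6 in Dll4+/- replicates 1 to 4, and the Dll4+/+ libraries were close together with 123, 135, 129.7 and 124. Dll4+/- replicate 4 was again lowest, and the groups overlapped (log2 fold change -0.27, SE 0.20; adjusted p = 0.811 in limma). The related Mmp15 (ENSMUSG00000031790, chromosome 8 from 95352268 to 95375080, forward strand) had 34.4, 44.5, 53.9 and 35.5 FPKM in Dll4+/- and 34.4, 46.8, 49.0 and 45.5 in Dll4+/+ libraries. Both genotypes held libraries near the bottom and the top of this range, and the log2 fold change was -0.07 (SE 0.17; adjusted p = 0.913 in limma).

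Other Mmp genes were steadier. Mmp11 (ENSMUSG00000000901, chromosome 10 from 75923222 to 75936496, reverse strand), stromelysin 3, which furin activates inside the cell, had 32.4, 34.6, 30.7 and 32.1 FPKM in Dll4+/- and 28.9, 34.8, 34.1 and 33.2 in Dll4+/+ libraries. Mmp23 (ENSMUSG00000029061, chromosome 4 from 155650655 to 155653384, reverse strand), which lacks the hemopexin domain of most Mmp enzymes, had 27.4, 23.4, 27.1 and 24.8 FPKM in Dll4+/- and 27.5, 22.3, 24.8 and 24.9 in Dll4+/+ libraries. These had the narrowest ranges over the libraries of the 26 tested members, 0.26 and 0.29 on the log2 scale, and no library stood apart. Their log2 fold changes were -0.01 (SE 0.10) and 0.05 (SE 0.11). Mmp28 (ENSMUSG00000020682, chromosome 11 from 83440768 to 83463071, reverse strand), epilysin, differed from them with 6.34, 1.97, 2.84 and 1.52 FPKM in Dll4+/- and 1.21, 1.92, 2.62 and 2.69 in Dll4+/+ libraries. Mmp28 was thus highest in Dll4+/- replicate 1, slightly above the Dll4+/+ range in replicate 3 and within it in the other 2 (log2 fold change 0.32, SE 0.32; adjusted p = 0.812 in limma). Without Dll4+/- replicate 1 its log2 fold change was 0.01. Mmp19 and Mmp17 lay between 1.39 and 4.60 FPKM in all libraries.

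The proteoglycan-cutting ADAMTS members had 6 of 7 tested, 3 with a higher and 3 with a lower mean of log2(FPKM + 1) in Dll4+/-, and a median log2 fold change of 0.05. Adamts1 (ENSMUSG00000022893, chromosome 16 from 85793827 to 85803113, reverse strand), which cuts versican, had 73.3, 51.0, 69.8 and 29.2 FPKM in Dll4+/- and 33.2, 51.4, 59.0 and 54.7 in Dll4+/+ libraries. The highest and the lowest library were both Dll4+/- (log2 fold change 0.12, SE 0.29; adjusted p = 0.917 in limma). Adamts8, the divergent neighbour of Adamts15 at a distance of 20.1 kb, was chosen for description after its values were seen. Its exons overlap an antisense gene, Gm29724. It had 25.4 FPKM in Dll4+/- replicate 1, 12.8, 14.5 and 11.4 in the other Dll4+/- libraries, and 9.76 to 14.6 in Dll4+/+. Both neighbours were highest in the same library. Adamts5 and Adamts4, the main aggrecanases of cartilage, were both lowest in Dll4+/- replicate 1, at 1.53 and 0.770 FPKM. Adamts9 lay between 6.33 and 11.3 FPKM.

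Procollagen N-proteinases were also uneven among the Dll4+/- libraries. Adamts2 (ENSMUSG00000036545, chromosome 11 from 50602084 to 50807573, forward strand) had 34.2, 19.6, 28.0 and 15.5 FPKM in Dll4+/- and 16.4, 23.3, 22.7 and 20.6 in Dll4+/+ libraries. The highest was Dll4+/- replicate 1 and the lowest replicate 4, enclosing all Dll4+/+ libraries (log2 fold change 0.17, SE 0.23; adjusted p = 0.851 in limma). Adamts14 (ENSMUSG00000059901, chromosome 10 from 61197112 to 61273438, reverse strand) had 13.6, 3.69, 4.32 and 5.22 FPKM in Dll4+/- and 3.27, 4.58, 3.18 and 3.51 in Dll4+/+ libraries. It had the smallest unadjusted p of the members in limma (0.10; log2 fold change 0.58, SE 0.32; adjusted p = 0.811). All but Dll4+/- replicates 1 and 4 lay within one narrow band, with Dll4+/+ replicate 4 above Dll4+/- replicates 2 and 3. Without Dll4+/- replicate 1 the log2 fold change of Adamts14 was 0.22.

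Adamts10 (ENSMUSG00000024299, chromosome 17 from 33524204 to 33553782, forward strand), a protease that binds fibrillin microfibrils, was the most abundant member. It had 203, 157, 169.6 and 177 FPKM in Dll4+/- and 128, 165, 168 and 152 in Dll4+/+ libraries. The highest 3 libraries were Dll4+/-, and replicate 2 lay within the Dll4+/+ range (log2 fold change 0.21, SE 0.13; adjusted p = 0.811 in limma). Without Dll4+/- replicate 2 its groups did not overlap, as in 9.16% of all tested genes.

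Adamts17 (ENSMUSG00000058145, chromosome 7 from 66839735 to 67153171, forward strand), in which mutations cause a human connective tissue disorder, had 19.7, 17.2, 20.1 and 5.57 FPKM in Dll4+/- and 12.6, 16.3, 17.6 and 14.7 in Dll4+/+ libraries. Dll4+/- replicate 4 was far below the rest, while Dll4+/- replicates 1 and 3 were highest. The log2 fold change was -0.10 (SE 0.34; adjusted p = 0.940 in limma) and 0.30 without Dll4+/- replicate 4. Adamts19 (ENSMUSG00000053441, chromosome 18 from 58836667 to 59054060, forward strand), linked to heart valve disease in humans, had 0.746, 3.84, 4.24 and 1.48 FPKM in Dll4+/- and 3.38, 4.80, 3.96 and 3.51 in Dll4+/+ libraries. Dll4+/- replicates 1 and 4 were lowest and the other Dll4+/- libraries lay among the Dll4+/+ ones (log2 fold change -0.59, SE 0.33; adjusted p = 0.811 in limma). Without both of these libraries it was 0.04. Adamts7 and Adamts12, which cut cartilage oligomeric matrix protein, gave log2 fold changes of -0.23 (SE 0.27) for the former and 0.13 (SE 0.33) for the latter, and Adamts6 was lowest in Dll4+/+ replicate 3, at 0.465 FPKM against 1.29 to 2.03.

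Of the inhibitors, Timp2 was the most abundant. Timp2 (ENSMUSG00000017466, chromosome 11 from 118301069 to 118355740, reverse strand) had 125, 129, 142 and 89.7 FPKM in Dll4+/- and 120.1, 137, 136 and 136 in Dll4+/+ libraries. Dll4+/- replicate 4 was lowest and replicate 3 highest, and the groups overlapped (log2 fold change -0.14, SE 0.15; adjusted p = 0.819 in limma). Timp3 (ENSMUSG00000020044, chromosome 10 from 86300372 to 86349506, forward strand), which stays bound to the matrix and also blocks ADAM17 and aggrecanases, has exons that overlap Syn3 on the opposite strand. Timp3 had 51.8, 19.0, 28.2 and 10.1 FPKM in Dll4+/- and 8.52, 17.9, 22.3 and 18.0 in Dll4+/+ libraries. The highest library was Dll4+/- replicate 1, while replicate 4 was below all Dll4+/+ libraries but replicate 3. Timp3 had the widest range of the tested members over the 8 libraries, 2.47 on the log2 scale, and a log2 fold change of 0.53 (SE 0.45; adjusted p = 0.811 in limma). Leaving out Dll4+/- replicate 1 gave 0.15, leaving out Dll4+/+ replicate 3 gave 0.25 and leaving out Dll4+/- replicate 4 gave 0.90. Timp1 lay between 6.40 and 14.0 FPKM and Timp4 between 1.81 and 4.13 FPKM.

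Members varied between libraries of the same genotype. The highest library was Dll4+/- replicate 1 for 10 of the 26 tested members (38.5%, beside 20.9% of all tested genes) and the same library was lowest for 5 (19.2%, beside 35.3%). The lowest was Dll4+/- replicate 4 for 8 (30.8%, beside 17.5%) and Dll4+/+ replicate 3 for 9 (34.6%, beside 24.3%), and Dll4+/- replicate 3 was the highest for 7 (26.9%, beside 13.5%). A median member lay 0.43 from its own mean on the log2 scale in Dll4+/- replicate 1 and 0.35 in Dll4+/- replicate 4, against 0.10 to 0.21 in the other 6 libraries. Over all tested genes these values were 0.28, 0.20 and 0.08 to 0.22. The members highest in Dll4+/- replicate 1 included Adamts15, Timp3, Adamts14, Mmp28 and Adamts8, and those lowest there Adamts19, Adamts7 and Adamts5.

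**Figure D4:**
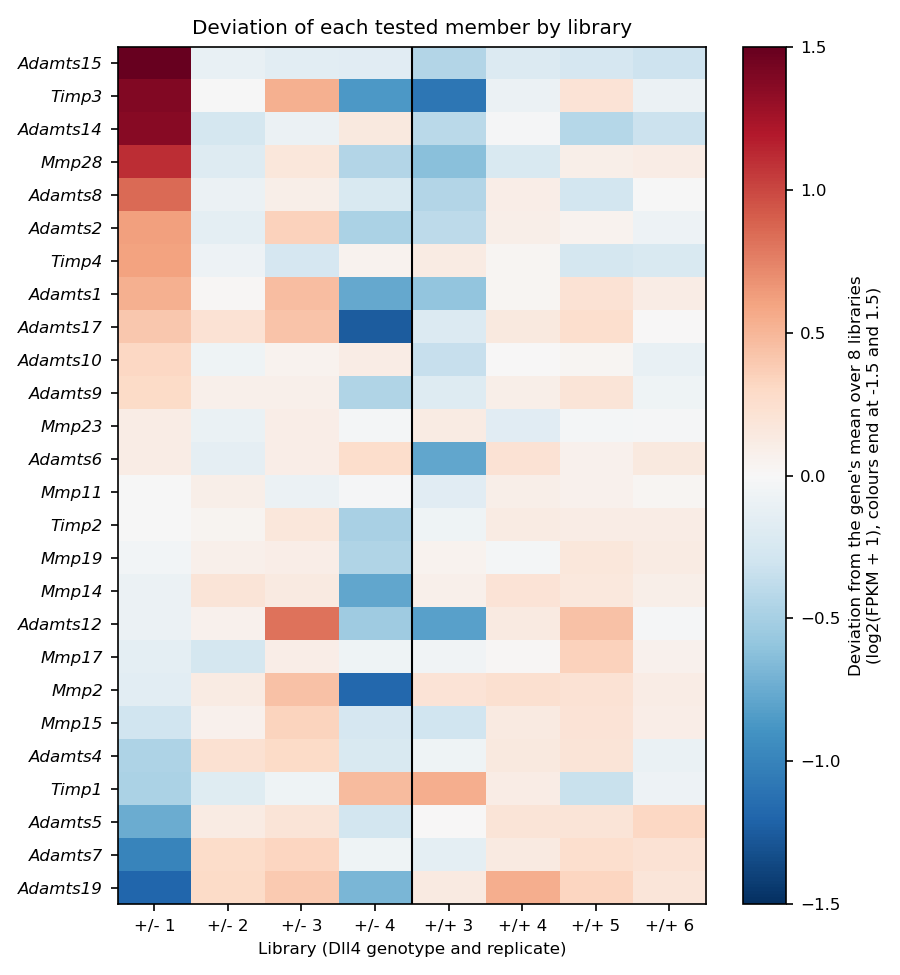
Deviation of each tested member (rows, ordered by the value in Dll4+/- replicate 1) from its mean over 8 libraries on the log2(FPKM + 1) scale, by library (columns). Red is above and blue below the mean. The columns of Dll4+/- replicates 1 and 4 hold most of the strong colours. These libraries lie on opposite sides of the mean for 10 of the 26 members (38.5%, beside 51.9% of all tested genes).

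The balance of families moved with these libraries too. Summed FPKM was 613 to 947 over Dll4+/- and 729 to 869.5 over Dll4+/+ libraries. Timp genes held 18.9% to 20.1% of it in every library. Mmp genes held 32.7% and 34.6% in Dll4+/- replicates 1 and 4, and 41.7% to 46.6% in the other 6. The sum of the Mmp genes was lowest in Dll4+/- replicate 4, at 212, and that of the Adamts genes highest in Dll4+/- replicate 1, at 450.4. The ratio of summed Timp to summed Mmp FPKM was 0.604 and 0.545 in these libraries and 0.428 to 0.472 in the others, and the genotypes overlapped.

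Summed levels of cell type markers were uneven between libraries. The summed FPKM of 10 neutrophil markers, none of them at 0 in every library, was 1510 in Dll4+/- replicate 1, 116 to 281 in the other Dll4+/- libraries and 151 to 233 in Dll4+/+ libraries. For 8 alveolar type I markers it was 2310 in Dll4+/- replicate 1 and 1200 to 1710 elsewhere. Endothelial markers (10 genes) summed to 723 in Dll4+/- replicate 4 and 1190 to 1450 elsewhere. Fibroblast and myofibroblast markers (10 genes) summed to 866 in Dll4+/- replicate 4, 941 in Dll4+/- replicate 1 and 1070 to 1210 elsewhere. Single genes of this list differed in direction. In Dll4+/- replicate 1, Pdgfra (40.6 FPKM), Col13a1 (55.9) and Pi16 (8.19) were at their highest. Tgfbi (233) and Stc1 (3.85) were at their lowest there, and the others lay within the range of the other libraries. Alveolar type II markers (8 genes) summed to 41100 in Dll4+/- replicate 4 and 13800 to 29400 elsewhere. Sftpc held most of this sum in every library. Sftpb, Lamp3, Abca3, Slc34a2 and Napsa were, like Sftpc, highest in Dll4+/- replicate 4. Sftpa1 (271.9 FPKM) and Lyz2 (899.3) lay there within the range of the other libraries. Heart muscle markers (8 genes) summed to 795 in Dll4+/- replicate 3 and 56.1 to 440 elsewhere. Mesothelial markers (6 genes) summed to 353 and 215 in Dll4+/- replicates 1 and 4 and 125 to 175 elsewhere. Msln (179.6 and 122.8 FPKM there) and Krt19 (158.5 and 77.85) held most of this sum. Upk3b (11.3 and 10.8), Gpm6a (2.706 and 1.935) and Lrrn4 (0.448 and 0.434) were lowest in these libraries. Wt1 (0.718 and 0.875) lay within the range of the other libraries. Macrophage markers (8 genes found) summed to 204 in Dll4+/- replicate 1 and 97.1 to 132 elsewhere. Fabp4 (72.3 FPKM) and Chil3 (43.0) were highest in that library. Cd68, Csf1r, Mrc1, Marco, C1qa and C1qb lay there within the range of the other libraries. Erythroid markers (6 genes found) summed to 21900 in Dll4+/+ replicate 3 and 10300 to 14900 elsewhere. Mast cell markers (7 genes) summed to 32.9 to 55.7 in Dll4+/- and 43.4 to 51.3 in Dll4+/+ libraries. Kit held most of this sum in every library. In limma 3 of 5 tested genes were lower at an unadjusted p under 0.05, beside 1.91% of all tested genes. The median log2 fold change was -0.69, with Cpa3 at 0.07 and Kit at -0.01. Genes under this p also occurred in the macrophage, lymphocyte, fibroblast, smooth muscle and skeletal muscle lists, and none passed after adjustment. The part of these cells in the levels of the members was not tested.

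Genes that act with the members gave no adjusted call either. Of 77 tested genes in 8 lists of activators, other inhibitors, related proteins and substrates, 41 had a higher and 36 a lower mean of log2(FPKM + 1) in Dll4+/-, and 0 passed in limma after adjustment. Without adjustment 4 (5.19%) lay under 0.05 in limma, where 3.36% of all genes did. These were the fibrillin-binding Adamtsl5 (log2 fold change 0.41, SE 0.18), the leukocyte sheddase Adam8 (0.54, SE 0.21) and the laminin chain Lama5 (0.55, SE 0.21), with higher values, and Fmod, with lower values. Fmod, the collagen-binding proteoglycan fibromodulin, had 10.1, 11.6, 10.7 and 10.8 FPKM in Dll4+/- and 16.4, 12.1, 13.7 and 15.5 in Dll4+/+ libraries (log2 fold change -0.38, SE 0.12; adjusted p = 0.811 in limma). Fmod was the 1 of the 77 genes whose groups did not overlap, where 3.12% of all tested genes did not, so the lists were not above the background. For 31 of the 77 (40.3%, beside 20.9% of all tested genes) the highest library was Dll4+/- replicate 1, and for 20 (26%, beside 35.3%) it was the lowest.

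Among substrates, versican (Vcan), which the proteoglycan-cutting ADAMTS enzymes cleave, had 2.25, 15.2, 16.2 and 6.04 FPKM in Dll4+/- and 14.1, 17.8, 18.1 and 15.5 in Dll4+/+ libraries. Elastin (Eln) had 10540 FPKM in Dll4+/- replicate 1 and 1348 to 2696 elsewhere, and tenascin C (Tnc) had 20.6 FPKM in Dll4+/- replicate 1 and 61.7 to 112 elsewhere. Adamtsl2, of the ADAMTS-like list, which binds fibrillin and lacks protease activity, had 75.4 FPKM in that library and 4.82 to 12.1 elsewhere. Of the ADAMTS-like list, 4 of 5 tested genes had higher means in Dll4+/-, with a median log2 fold change of 0.41 beside -0.02 over all genes, and 0 passed after adjustment in limma. Log2 fold changes of single genes in other lists were -0.70 for Htra1, 0.62 for Adam23, -0.47 for Col3a1 and -0.30 for Pcsk6, none of them past the adjusted threshold in limma.

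Labelled sex was examined with genotype. In limma 0 of 26 members had an adjusted interaction of sex and genotype, where 3 of all 13610 genes (0.022%) did. Without adjustment 1 of 26 lay under 0.05 in limma, where 1036 of all genes (7.61%) did, so the members' share was not above the background. The member was Adamts19, whose log2 fold change was -1.09 between pups labelled male and -0.09 between those labelled female (adjusted p = 0.567 in limma). The pups labelled male include Dll4+/- replicates 1 and 4, and the female side rests on the library that goes against its label, so sex and these libraries cannot be told apart.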

How the data were processed

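Right lungs of P6 pups were extracted with a MirVana kit, and poly-A selected NEBNext Ultra libraries were read in 150-bp pairs on a NovaSeq instrument. The submitters' notes name CASAVA, STAR and GRCm38.p4. The authors deposited FPKM values for 35275 genes; the abundance tool and strand handling are not given in the sources used here. Without strand, members whose exons overlap a gene on the opposite strand are uncertain, among them Timp3 (Syn3), Mmp11 (Chchd10), Timp4 (Syn2), Mmp28, Mmp19, Adamts4, Adamts7, Adamts8 and Adamts9. The series has 10 samples; the table has columns for 8, and Dll4+/+ replicates 1 and 2 were not analysed here. The deposited columns of group means, fold changes and p-values were not used. Values of 0.005 that replaced 0 in 239 genes, 0 of them members, were set to 0.

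The 13610 genes that reached an FPKM of 1 in 4 or more libraries were tested on log2(FPKM + 1), a scale that understates the change of low genes, with limma 3.58.1 (R 4.3.3, trended empirical Bayes), with Benjamini-Hochberg adjustment over all of them. Exact permutation tests were two-sided over 70 splits. Each library is a separate pup, and litters were not modelled. Whole fragments were recovered for 100% of tested genes within 0.01, of which 1454 at the annotated exon length; the others can be wrong by a multiple that is the same in each library. These counts entered voom as an alternative. Scripts were tested on simulated data. Members with all their values given are the 12 with the highest mean, those whose groups do not overlap or with an unadjusted p under 0.05, and the 5 with the largest change and the 5 with the widest range; others are described by range. The members and lists were chosen with earlier results of these data known. Figures used matplotlib 3.10.9.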

Additional observations from a re-analysis of the deposited data

Results flagged for a closer look

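In 3 cases 1 library of a group of 4 lay apart from the other 3 by a gap beyond Dixon's 95% limit for 4 values. Adamts15 had 57.7 FPKM in Dll4+/- replicate 1, where the other Dll4+/- libraries lay between 15.5 and 16.2. Adamts14 had 13.6 FPKM in the same library, against 3.69 to 5.22. Timp2 had 120 FPKM in Dll4+/+ replicate 3, against 136 to 137 in the other Dll4+/+ libraries. Chance gives such a gap in about 1 of 20 groups. Among the tested members it occurred in 2 of 26 (7.69%) in Dll4+/- and 1 of 26 (3.85%) in Dll4+/+, beside 8.74% and 10.7% of all tested genes.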

How the results depend on the processing

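The 4 libraries per genotype and the spread among the Dll4+/- libraries limit what could be detected. In all 18 alternatives 0 members passed the adjusted threshold in limma (lowest adjusted p 0.626, without Dll4+/- replicate 2). Adamts5, Adamts8, Adamts10, Adamts14, Adamts15, Mmp28 and Timp3 kept their direction in each alternative in which they were tested, but not their size. With each library left out in turn their log2 fold changes ran from -0.48 to -0.16, 0.08 to 0.44, 0.12 to 0.26, 0.22 to 0.77, 0.15 to 0.76, 0.01 to 0.52 and 0.15 to 0.90, respectively, and without both Dll4+/- replicates 1 and 4 Adamts5 was at -0.02. A pseudocount of 0.1 and voom turned no direction. No filter, the stricter filter (FPKM of 5) and labelled sex as a term could not turn one. Genes are fitted singly and labelled sex is balanced between the genotypes, so these settings leave each log2 fold change as it was. The cause of the changes listed here was not tested.

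Rescaling by median-of-ratios turned Mmp11 and Adamts9 to 0.01 each, and equal totals turned both to 0.03 (log2 fold changes here and below). Array weights turned Timp4 to -0.01, Adamts7 to 0.06, Adamts6 to -0.14, Adamts4 to 0.12, Mmp15 to 0.02 and Adamts17 to 0.10. With the replicate block, Mmp17 was 0.04, Timp4 -0.18, Adamts7 0.13 and Mmp15 0.12, and 16 of all genes passed the adjusted threshold, none of them members. Only replicate numbers 3 and 4 are shared by the genotypes, so the genotype estimates of this fit rest on the libraries with these numbers alone. The correlations of the deviations of these libraries were -0.228 and -0.056. These 2 values cannot show whether the numbers pair the pups. Without both Dll4+/- replicates 1 and 4, Adamts19 was 0.04, Mmp14 0.03, Mmp2 0.09, Mmp19 0.00, Timp2 0.04, Timp4 -0.08, Adamts7 0.18, Adamts4 0.22, Mmp15 0.17, Adamts17 0.28 and Adamts9 0.07.

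With each library left out in turn, log2 fold changes of the members that turned ran from -0.01 to 0.28 for Timp4, -0.37 to 0.07 for Adamts7, -0.05 to 0.28 for Adamts6, -0.01 to 0.36 for Adamts2, -0.30 to 0.04 for Timp1, -0.20 to 0.05 for Adamts4, 0.00 to 0.09 for Mmp23, -0.20 to 0.01 for Mmp15, -0.06 to 0.39 for Adamts1, -0.12 to 0.32 for Adamts12, -0.26 to 0.30 for Adamts17, -0.07 to 0.02 for Mmp11 and -0.11 to 0.14 for Adamts9.

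Members under an unadjusted p of 0.05 in limma numbered 0 to 2 with a library left out, 1 of 40 with no filter (Mmp3; 3.77% of all genes) and 1 with labelled sex as a term (Adamts19; 4.17%). Those left-out cases were Adamts14 and Adamts19 without Dll4+/- replicate 2 (7.03% of all genes), Adamts5 and Adamts19 without Dll4+/- replicate 3 (5.19%), and Timp3 without Dll4+/- replicate 4 (4.31%). All genes under it numbered 933 with no filter, 286 with the stricter filter, 775 with array weights, and 230 (without Dll4+/+ replicate 3) to 957 (without Dll4+/- replicate 2). Array weights gave 3 genes past the adjusted threshold. Members whose groups did not overlap numbered 0 under equal totals and 3 without both Dll4+/- replicates 1 and 4, both chosen after seeing the data. No share over all genes is given for equal totals, so that count of 0 has no background beside it. Such members numbered 1 to 3 with a library left out, beside 4.09% to 7.46% of all genes above 0. The 3 without both libraries were Adamts15, Adamts7 and Adamts4, where 13.8% of all genes above 0 did not overlap. Without Dll4+/- replicate 2 they were Mmp3, Adamts10 and Adamts15 (7.46% of all genes above 0). Adamts15 was joined by Mmp17 without Dll4+/- replicate 3 (5.34%), Mmp12 without Dll4+/+ replicate 3 (4.2%) and Adamts14 without Dll4+/+ replicate 4 (4.09%).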
